A study of Mus musculus with 20 samples.

Results

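Mmp12, Marco, Clec4d, Lgals3, Gpnmb, Cd68 and Atp6v0d2, genes of activated macrophages, had higher ratios in the livers of all 5 PXR-knockout mice given the BACE1 inhibitor CMP013 than in every vehicle mouse of that genotype, Gpnmb by 1 of its 2 probe sets only. The set described here has 10 genes (these 7 with Trem2, Itgax and Spp1), and its members were chosen on the measured response of the PXR-KO mice, so for them that response and its difference from the wild-type response are given as a description, with no test. A probe set belonged to the set if its annotated gene symbol was exactly one of the 10. That gave 13 probe sets of 9 genes among 45037 probe sets on the array. Spp1 (osteopontin) was not analysed here.

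Livers came from 4 groups of 5 young adult male mice, with 1 array per animal. The wild-type (WT) mice were C57Bl/6 (PXR+/+) and the PXR-KO mice carried the PXR knockout (PXR-/-), labelled C57BL/6NTac in one field and C57BL/6 in another, so the effects of genotype and of substrain cannot be told apart. Each genotype was given either vehicle or CMP013 at 150 mg/kg/day by oral gavage every 24 h, and liver RNA was taken at 96 h. The labels state RNA integrity numbers of 9.3 to 10 for the PXR+/+ and 8.7 to 9.6 for the PXR-/- livers, and do not split them by treatment. Every value is relative, the signal of a mouse over the mean signal of the 5 same-genotype vehicle mice, given here as log2, where 1 is a doubling and 0 is the vehicle mean. The values used here are not levels. Whether a gene was near background, how the genotypes differ under vehicle, the level of the deleted gene and the defining markers of liver were therefore not checked here.

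Macrophages of the liver are the resident Kupffer cells, which line the sinusoids, and cells that develop from blood monocytes when tissue is injured. Both take up debris and lipid through scavenger and lectin receptors, break it down in lysosomes, and release enzymes and cytokines into the matrix around them. PXR, the pregnane X receptor, is a nuclear receptor of hepatocytes that responds to drugs and turns on genes of drug metabolism. In whole liver, more cells of a type and more RNA of a gene per cell cannot be told apart.

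The promoters of the set were searched for short motifs. RefSeq (GRCm38.p6) gave 11 promoter windows for 9 of the 10 genes, Spp1 included, each reaching from 250 bases before to 50 bases after a start base. The windows were searched on both strands for CACGTG and TCATGTG, E-boxes of the kind read by the MITF and TFE factors of lysosomal genes. They were also searched for GAGGAAGT, a site of the macrophage factor PU.1. The last was TGANTCA, a loose form of the AP-1 site with any base at N. CACGTG was in 0 of the 11 member windows and in 7.15% of all 32851 windows. TCATGTG was in 1 (Mmp12) and in 3.77% of all, GAGGAAGT in 2 (Mmp12 and Spp1) and in 3.2% of all, and TGANTCA in 5 (Cd68, Gpnmb, Itgax, Mmp12 and Trem2) and in 7.81% of all. These shares describe the letters of the windows only. The AP-1 match of Trem2 is TGAATCA, and those of the other members are TGAGTCA or TGACTCA. The AP-1 match of Gpnmb lies 8 bases after its start base. The 160 bases before the start are printed for the windows of the measured genes with a match there (Mmp12, Cd68, Trem2 and Itgax), to show where the matches lie, with the matches in capitals. The Spp1 match lies 113 bases before its start base, and that window is not printed because Spp1 was not analysed here.
Mmp12, chr9:7344237-7344396, plus strand, PU.1: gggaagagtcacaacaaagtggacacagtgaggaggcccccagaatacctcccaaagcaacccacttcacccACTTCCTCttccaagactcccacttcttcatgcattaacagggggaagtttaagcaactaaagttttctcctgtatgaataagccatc
Mmp12, second window, chr9:7347214-7347373, plus strand, E-box and AP-1: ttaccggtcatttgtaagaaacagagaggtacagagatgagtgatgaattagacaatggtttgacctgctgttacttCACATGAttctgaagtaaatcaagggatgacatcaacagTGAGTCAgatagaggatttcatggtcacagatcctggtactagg
Cd68, chr11:69666171-69666330, minus strand, AP-1: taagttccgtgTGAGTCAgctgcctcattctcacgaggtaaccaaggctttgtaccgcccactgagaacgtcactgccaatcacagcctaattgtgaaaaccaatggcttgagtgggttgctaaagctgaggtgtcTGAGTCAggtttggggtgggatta
Trem2, chr17:48346241-48346400, plus strand, AP-1: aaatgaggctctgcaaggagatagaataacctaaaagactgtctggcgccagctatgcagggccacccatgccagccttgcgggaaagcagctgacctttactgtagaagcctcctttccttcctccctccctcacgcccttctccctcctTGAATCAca
Itgax, chr7:128129390-128129549, plus strand, AP-1: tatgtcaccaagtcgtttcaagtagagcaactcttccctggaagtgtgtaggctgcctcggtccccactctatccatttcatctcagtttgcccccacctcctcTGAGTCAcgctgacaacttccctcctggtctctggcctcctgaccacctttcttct

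The plot of all member probe sets by mouse shows how far the PXR-KO mice given CMP013 stood from the other 3 groups.

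**Figure D1:**
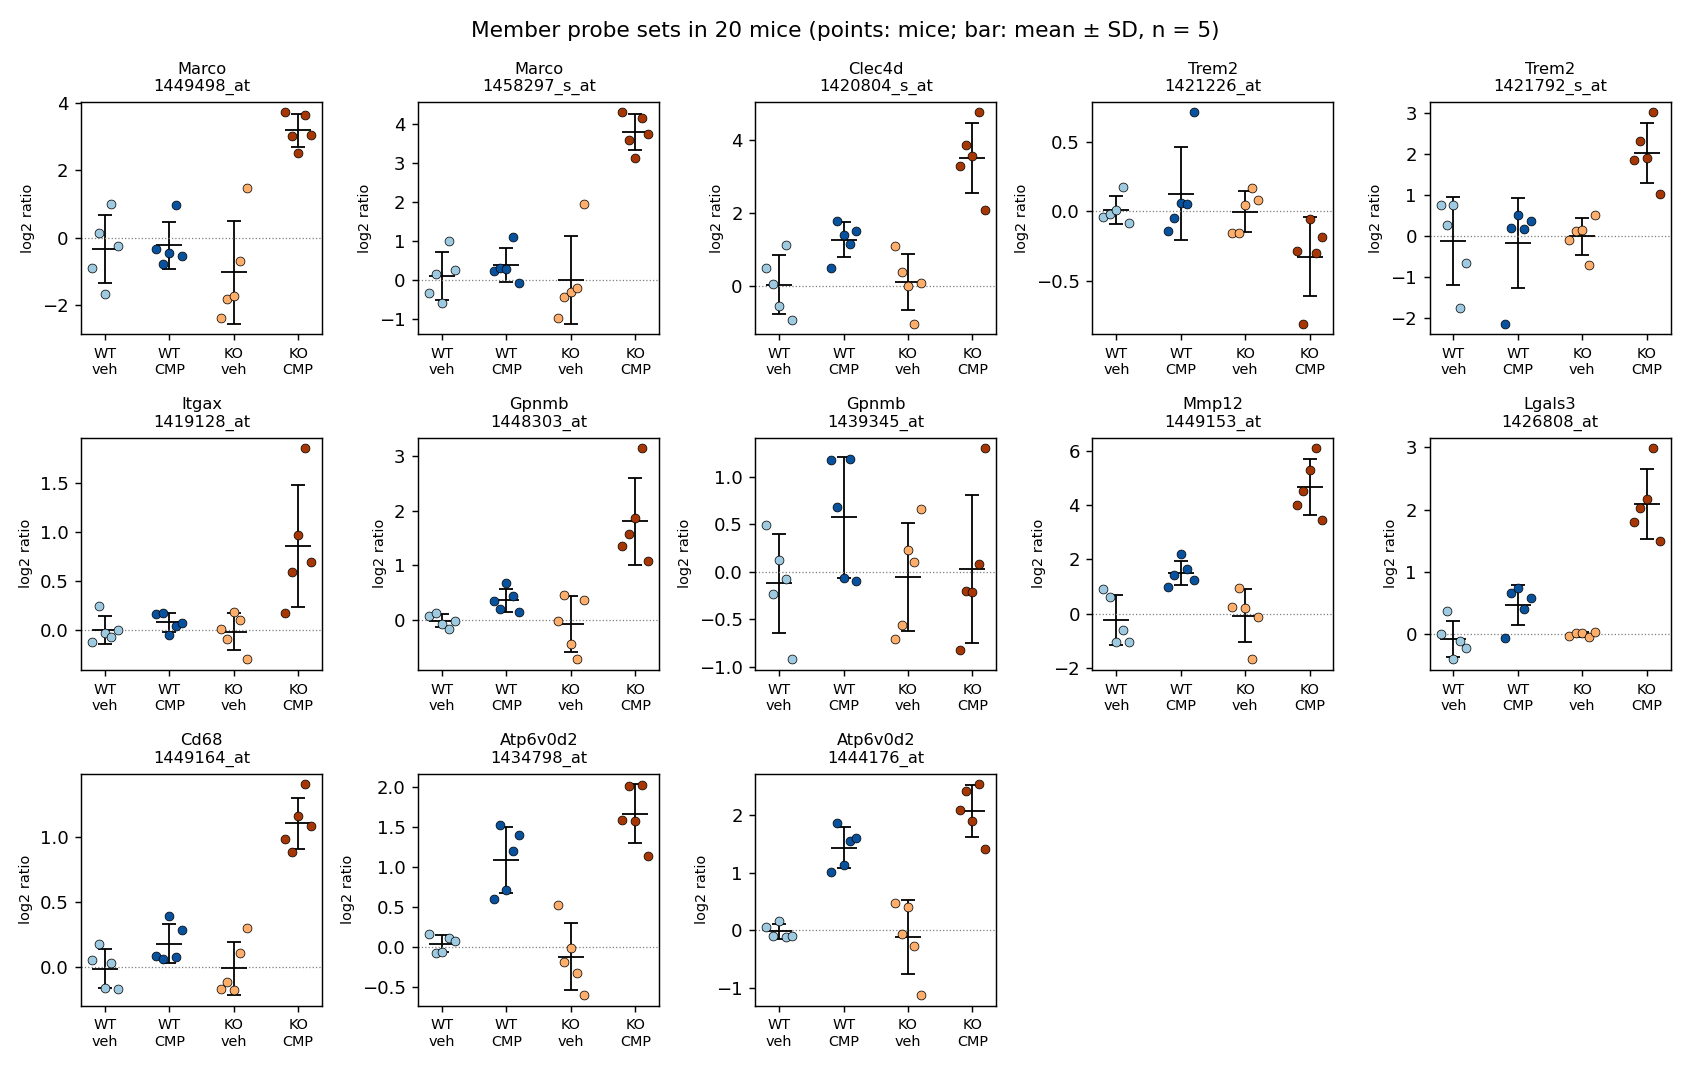
Log2 ratio (vertical axis, each panel with its own scale) of the 13 member probe sets in 20 mice, where each point is a mouse, in the order of replicates 1 to 5 within a group, and bars are the mean ± SD of 5. The PXR-KO CMP013 mice lie above all PXR-KO vehicle mice for 10 of the 13 probe sets, beside 4.07% of all probe sets. That count follows from the choice of the members on this response. Mmp12 is the highest at 3.46 to 6.10, and the 2 probe sets each of Gpnmb and Trem2 differ from each other.

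Among the surface receptors, Marco, a scavenger receptor that binds bacteria and particles, had large ratios in the treated PXR-KO mice. By probe set 1449498_at the PXR-KO mice 1 to 5 given CMP013 had log2 ratios of 3.72, 3.02, 2.51, 3.64 and 3.05, and the vehicle mice of that genotype had -2.38, -1.83, -1.73, -0.68 and 1.47. The groups do not overlap, although vehicle mouse 5 lies well above its 4 group mates. The log2 difference was 4.22 with a standard error of 0.64 (18.6-fold), and it ran from 3.88 to 4.84 with 1 mouse left out, the highest without vehicle mouse 5. Computed from arithmetic means of the ratios, which weigh vehicle mouse 5 more, it was 11.5-fold. WT mice had -0.33, -0.79, -0.45, 0.96 and -0.55 with CMP013 and -0.89, 0.15, -1.67, 0.99 and -0.25 with vehicle. These 2 groups overlap throughout, and the log2 difference of 0.10 (SE 0.49) did not pass the test (limma, adjusted p = 0.927). Its sign depends on single mice, from -0.23 to 0.43 with 1 mouse left out at a time. The other Marco probe set, 1458297_s_at, ran from 3.15 to 4.30 in treated PXR-KO mice and from -0.06 to 1.11 in treated WT mice. Its log2 difference from vehicle was 3.77 (SE 0.49) in PXR-KO and 0.27 (SE 0.31, limma adjusted p = 0.629) in WT mice.

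Clec4d, a C-type lectin of myeloid cells that recognises fungal and mycobacterial glycolipids, also split treated from vehicle mice in the PXR-KO genotype. Its only probe set was 1420804_s_at, with the _s_ mark that the choice of probe sets ranked last. Log2 ratios were 3.29, 3.87, 3.57, 4.77 and 2.09 in PXR-KO mice 1 to 5 given CMP013, against 1.11, 0.37, 0.01, -1.04 and 0.08 with vehicle. Every treated mouse lies above every vehicle mouse, by 0.99 at the nearest, and the log2 difference was 3.41 (SE 0.50, 10.6-fold). In WT mice the values were 0.50, 1.79, 1.39, 1.16 and 1.50 with CMP013 and 0.48, 0.06, -0.55, 1.13 and -0.94 with vehicle. Treated WT mouse 1 falls among the vehicle mice and the other 4 lie above them. The WT difference of 1.23 (SE 0.38, 2.35-fold) missed the threshold (limma, adjusted p = 0.0601), with adjusted p between 0.0217 and 0.129 when 1 mouse was left out.

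Trem2, a receptor of lipid-laden macrophages and microglia that signals through the adaptor Tyrobp, gave opposite readings by its 2 probe sets. By 1421792_s_at the treated PXR-KO mice had 1.86, 2.33, 1.90, 3.02 and 1.04, all above the vehicle mice at -0.10, 0.13, 0.15, -0.72 and 0.51, a log2 difference of 2.04 (SE 0.35). By 1421226_at, the probe set that stands for the gene by the rule, they had -0.28, -0.80, -0.06, -0.30 and -0.18 against -0.15, -0.15, 0.05, 0.17 and 0.08. Those groups overlap and the difference was -0.32 (SE 0.14). Averaged over both probe sets it was 0.86, so the direction of Trem2 in PXR-KO mice rests on which probe set is read. In WT mice neither probe set passed the test (limma, -0.05 with SE 0.62 and adjusted p = 0.971 for 1421792_s_at, 0.12 with SE 0.15 and adjusted p = 0.685 for 1421226_at). WT mouse 1 given CMP013 had -2.14 by 1421792_s_at while its group mates had 0.17 to 0.52.

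Itgax encodes CD11c, an integrin chain of dendritic cells and of some activated macrophages. Its log2 ratios were 0.18, 0.59, 0.97, 1.85 and 0.69 in PXR-KO mice 1 to 5 given CMP013, and 0.01, -0.09, 0.19, 0.10 and -0.30 with vehicle. Treated mouse 1 lies 0.01 below the highest vehicle mouse, the other 4 lie above all of them, and the difference was 0.87 (SE 0.27). WT mice had -0.06 to 0.17 with CMP013 and -0.12 to 0.24 with vehicle, a difference of 0.07 (SE 0.09, limma adjusted p = 0.678).

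Gpnmb, a membrane glycoprotein of lysosome-rich macrophages, also has 2 probe sets that differ. By 1448303_at the PXR-KO mice given CMP013 had 1.35, 1.56, 1.86, 3.14 and 1.08, and those given vehicle had -0.02, 0.46, -0.45, -0.73 and 0.35. These groups do not overlap, and mouse 4 stands highest. The difference was 1.88 (SE 0.38, 3.67-fold). WT mice had 0.34, 0.19, 0.67, 0.43 and 0.14 with CMP013 and 0.06, 0.12, -0.08, -0.17 and -0.03 with vehicle. The WT groups are separated by 0.02 only, and the difference of 0.37 (SE 0.12) missed the threshold (limma, adjusted p = 0.0592, from 0.0416 to 0.125 with 1 mouse left out). By 1439345_at all 4 groups overlap, with a difference of 0.08 (SE 0.39) in PXR-KO and 0.70 (SE 0.34, limma adjusted p = 0.211) in WT mice.

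Of the secreted members, Mmp12, the macrophage elastase that cuts elastin and other matrix proteins, had the highest ratios of the set. PXR-KO mice 1 to 5 given CMP013 had log2 ratios of 4.0, 4.51, 5.29, 6.10 and 3.46, against 0.25, 0.95, 0.22, -1.68 and -0.10 with vehicle. The gap between the lowest treated and the highest vehicle mouse was 2.51, and the difference was 4.75 (SE 0.57, 26.8-fold). Mmp12 also rose in WT mice, where the treated mice had 0.98, 1.43, 2.18, 1.65 and 1.23 and the vehicle mice had 0.90, 0.63, -1.03, -0.59 and -1.04. The WT groups are separated by 0.08, with vehicle mouse 1 nearest to the treated mice. The WT difference was 1.72 (SE 0.42, 3.30-fold, limma adjusted p = 0.0215). The call was lost without WT vehicle mouse 3 (adjusted p = 0.051), WT vehicle mouse 4 (0.0512) or WT CMP013 mouse 3 (0.0509). It was also lost with quantile normalization (0.217), with a replicate block (0.0839) and without the 4 vehicle mice that stand apart (0.121).

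Lgals3 encodes galectin-3, a lectin secreted by macrophages that binds galactosides on glycoproteins. The treated PXR-KO mice had 1.80, 2.03, 2.16, 2.99 and 1.49, and the vehicle mice of the genotype lay close together at -0.03, 0.02, 0.02, -0.05 and 0.03. No other member had so small a spread in a group by its representative probe set (SD 0.04, n = 5). The groups are separated by 1.46, and the difference was 2.09 (SE 0.23, 4.26-fold). WT mice had -0.06, 0.67, 0.74, 0.40 and 0.58 with CMP013 and 0.00, 0.38, -0.40, -0.11 and -0.22 with vehicle. Treated WT mouse 1 falls among the vehicle mice, and the difference of 0.54 (SE 0.18) missed the threshold (limma, adjusted p = 0.0835, from 0.0265 to 0.172 with 1 mouse left out).

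The lysosomal members were Cd68 and Atp6v0d2. Cd68, a glycoprotein of macrophage lysosomes used to stain these cells in tissue, had 0.98, 0.88, 1.16, 1.40 and 1.08 in treated PXR-KO mice and -0.16, -0.11, -0.17, 0.11 and 0.30 with vehicle. The groups are separated by 0.58, and the difference was 1.11 (SE 0.13, 2.16-fold). In WT mice the values were 0.09, 0.06, 0.39, 0.08 and 0.28 with CMP013 and 0.06, 0.18, -0.16, 0.04 and -0.16 with vehicle, which overlap (difference 0.19, SE 0.11, limma adjusted p = 0.284).

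Atp6v0d2, the d2 subunit of the membrane part of the V-ATPase proton pump, which osteoclasts and some macrophages use, had the smallest adjusted p of the members in WT mice. By 1434798_at the WT mice had 0.60, 1.53, 0.71, 1.20 and 1.41 with CMP013 and 0.16, -0.08, -0.07, 0.11 and 0.07 with vehicle, a difference of 1.05 (SE 0.18, limma adjusted p = 0.00447). By 1444176_at the WT difference was 1.46 (SE 0.16, limma adjusted p = 0.000437). Both stayed past the threshold with each mouse left out, with adjusted p up to 0.0143 and 0.00191. Treated PXR-KO mice had 1.59, 2.02, 1.58, 2.03 and 1.14 by 1434798_at, above all vehicle mice at 0.52, -0.19, -0.02, -0.33 and -0.61, a difference of 1.80 (SE 0.23). By 1444176_at it was 2.20 (SE 0.32). The treated mice of the 2 genotypes overlap for both probe sets.

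Over the 9 measured genes, with 1 probe set each, the median log2 difference was 0.37 in the WT and 1.88 in the PXR-KO genotype, beside -0.01 and 0.01 over all probe sets. In WT mice 2 of 9 genes (Mmp12 and Atp6v0d2) and 3 of 13 probe sets were called higher at an adjusted p under 0.05 and none lower, where 7.67% of all probe sets were called higher and 6.72% lower. WT groups did not overlap for 3 of 9 genes, beside 7.78% of all probe sets with every treated above every vehicle mouse. All 5 treated WT mice were at least 1.25-fold above the vehicle mean for 3 of 9 genes, beside 5.55%. No member probe set was lower in WT mice at an unadjusted p under 0.05. Whether the WT response had a part in the choice of the members is not known here. The WT tests and counts of the members may therefore not be free of that choice. In PXR-KO mice, where the genes were chosen, the groups did not overlap for 7 of 9 genes, beside 4.07% of all probe sets, and all 5 treated mice were at least 1.25-fold up for 7 of 9, beside 3%. These PXR-KO counts follow from the choice of the members and nothing is read from them.

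**Figure D2:**
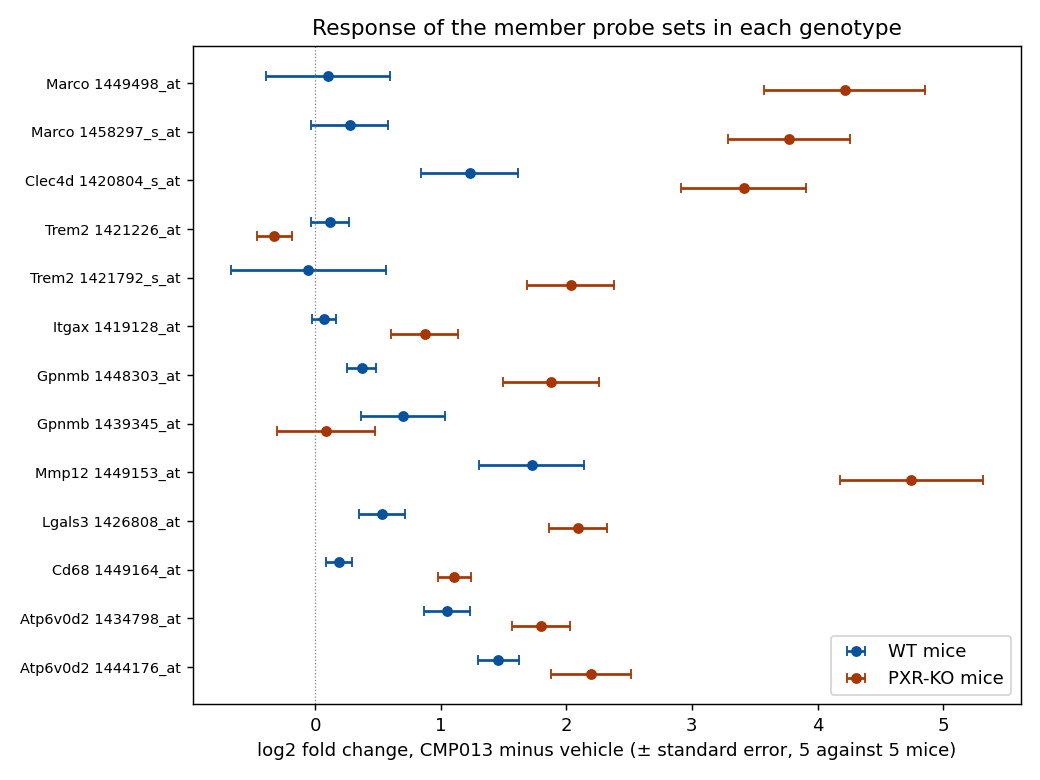
Log2 fold change of CMP013 against vehicle (horizontal axis) for the 13 member probe sets (vertical axis) in each genotype, where points are fitted differences and bars ± 1 standard error over 5 against 5 mice. PXR-KO values run up to 4.75 (Mmp12) and WT values up to 1.72 (Mmp12), and those of 1421226_at (Trem2) and 1439345_at (Gpnmb) alone are lower in PXR-KO than in WT mice.

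The 2 responses were set against each other by taking the PXR-KO response off the WT response. This difference was -4.11 (SE 0.85) for Marco, -3.02 (SE 0.74) for Mmp12, -2.18 (SE 0.66) for Clec4d, -1.56 (SE 0.31) for Lgals3, -1.50 (SE 0.42) for Gpnmb and -0.92 (SE 0.17) for Cd68. For Itgax it was -0.80 (SE 0.29), for Atp6v0d2 -0.75 (SE 0.30) and for Trem2 0.44 (SE 0.21). The PXR-KO response, on which the members were chosen, is part of this difference, so the difference was not tested for them. The difference for Marco ran from -4.74 to -3.78 with 1 mouse left out, the lowest without PXR-KO vehicle mouse 5. Mouse by mouse, every treated PXR-KO mouse had a higher ratio to its own vehicle mean than every treated WT mouse for 7 of 9 genes, beside 9.98% of all probe sets. The exceptions were Atp6v0d2, where the ranges of 1.14 to 2.03 and 0.60 to 1.53 overlap, and Trem2. For Itgax the lowest PXR-KO and the highest WT mouse were 0.175 and 0.174.

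Among the treated PXR-KO mice, part of the order was shared by much of the set. PXR-KO CMP013 mouse 4 had the highest value for 7 of 9 genes, and mouse 5 the lowest for 5 of 9. How many of all probe sets were highest in mouse 4 was not counted. Marco was an exception, highest in mouse 1 and lowest in mouse 3, and so was Trem2, highest in mouse 3 and lowest in mouse 2. In the other groups no mouse was highest for more than 4 of 9 genes. The mean over the 9 genes ran from 1.54 to 2.85 in treated PXR-KO mice, from 0.24 to 0.66 in treated WT mice, from -0.44 to 0.19 in WT vehicle mice and from -0.46 to 0.14 in PXR-KO vehicle mice. Across the 20 mice, which share the 2 vehicle references and the treatment, Pearson's r between pairs of genes ran from 0.62 to 0.96 for the 28 pairs without Trem2 and from -0.53 to -0.35 for the 8 pairs with its representative probe set. After the group means were taken out, the 28 pairs ran from -0.34 to 0.76 with a median of 0.39.

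**Figure D3:**
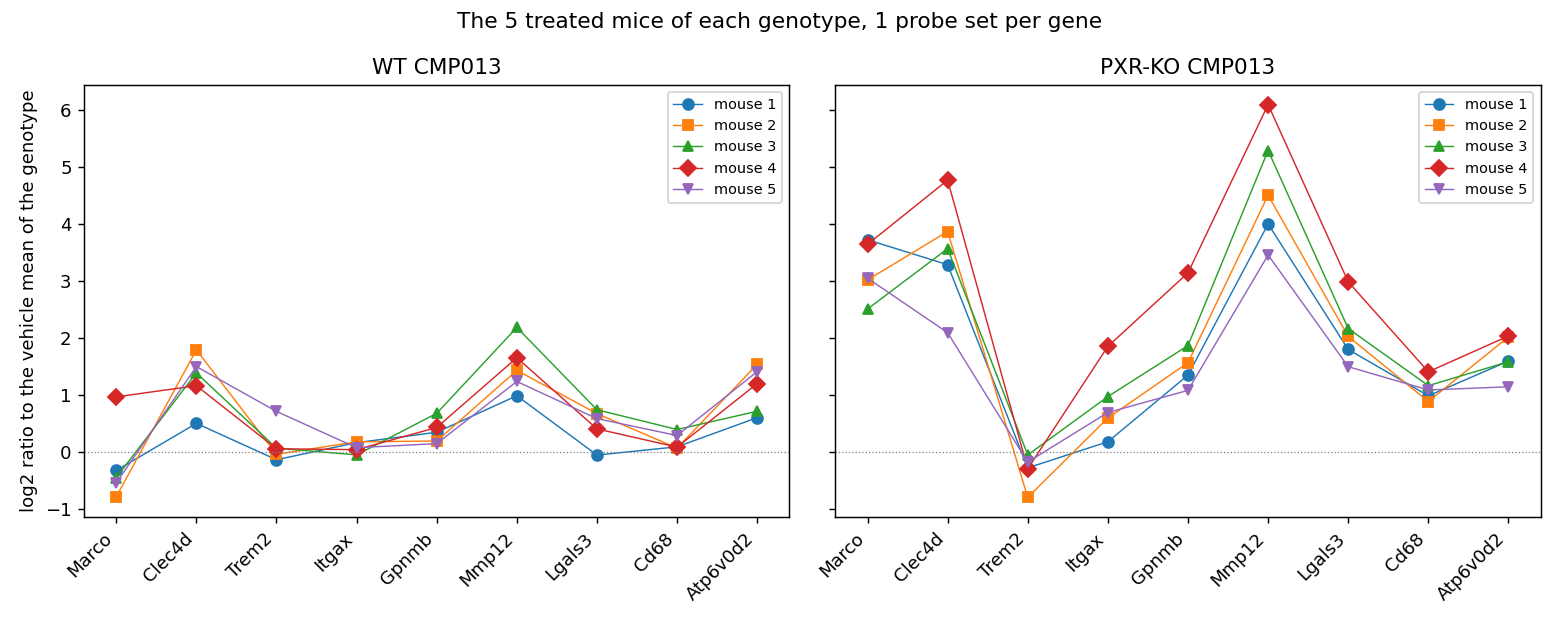
Log2 ratio to the vehicle mean of the genotype (vertical axis) of the 9 measured genes (horizontal axis, 1 probe set per gene) in the 5 treated mice of each genotype, where each line joins the values of 1 mouse and has no meaning between genes. PXR-KO mouse 4 is highest for 7 of the 9 genes, and the PXR-KO lines lie above the WT lines except at Trem2 and Atp6v0d2.

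Genes outside the set were ranked by how closely they followed the mean of the 9 measured members over the 20 mice. Of 18184 genes the most alike were Plek (pleckstrin, a protein kinase C substrate of leukocytes and platelets, r = 0.95), Ctsz (cathepsin Z, a lysosomal protease, r = 0.95) and Parp16 (r = 0.94). Next came Gpr137b-ps, Tnfrsf12a (the receptor of TWEAK), Hspa2, Ndel1, Ildr2, Nfkbiz (an atypical IκB) and Pmp22, with r from 0.92 to 0.93. In treated PXR-KO mice the mean log2 ratio was 1.31 for Plek, 0.53 for Ctsz, 2.30 for Tnfrsf12a and 3.18 for Ildr2, and in treated WT mice it was 0.28, 0.07, 0.76 and 0.87. These genes were picked for their likeness to the members, so their values are a description.

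Lists of related genes were then read by the same fits, and here each comparison was tested. The lists were chosen with earlier results of these data known, and most of their genes named here had a small adjusted p. Their tests and counts may therefore not be free of that choice. Over the array 2.12% of probe sets were called higher and 1.54% lower in PXR-KO mice, and the difference (WT minus PXR-KO) was called negative for 5.49% and positive for 5.47%. Under variances with a trend and robust fitting limma called 0 of 45037 probe sets in PXR-KO mice (smallest adjusted p 0.0536, 8806 at an unadjusted p under 0.05), so every PXR-KO call on these lists was lost there. Of 13 genes listed as macrophage transcription factors, 4 rose in PXR-KO mice and none fell. Whole liver does not show in which cells they rose. Fos rose by 2.90 (adjusted p = 0.00596) and Jun by 1.82 (adjusted p = 0.00994), the 2 parts of AP-1, and in WT mice they measured 0.10 and 0.73 (adjusted p = 0.882 and 0.219). Fosl2, a further AP-1 member, rose by 1.18 (adjusted p = 0.0312), and Irf8, a factor of the monocyte lineage, by 0.49 (adjusted p = 0.0392, lost for 9 of 10 mice left out). Fosl2 is outside the rule for named genes and was added after its value was seen, as were Cebpb and Folr2 among the genes given here. Spi1, which encodes PU.1, was at 0.55 in PXR-KO (adjusted p = 0.0569) and 0.12 in WT mice (adjusted p = 0.487). Mitf was at 0.04 and 0.30 (adjusted p = 0.893 and 0.115), and its sign changes with the probe sets read. In WT mice 1 of 13 rose, Tfe3 at 0.55 (adjusted p = 0.00323), a regulator of lysosomal genes, and 1 fell, Cebpb at -0.44 (adjusted p = 0.0479). With 1 mouse left out, the count higher in PXR-KO mice ran from 2 to 4 and that lower in WT mice from 0 to 2. The count lower in WT mice was 0 without the 4 vehicle mice that stand apart. The difference of the responses was called for 3 of 13, negative in each, among them Fos (-2.80, adjusted p = 0.00211). For Jun it was not called (-1.09, adjusted p = 0.157). The median of the list was 0.16 in PXR-KO and 0.04 in WT mice.

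Partners of the member receptors and other genes of their families moved in PXR-KO mice in part. Of 9 further lectins of the Clec4 and Clec7 families, 2 rose in PXR-KO mice, Clec4n (Dectin-2) by 2.13 (adjusted p = 0.00482) and Clec7a (Dectin-1, a receptor of fungal glucans) by 1.48 (adjusted p = 0.00986), and none fell. Clec7a was at 0.09 in WT mice (adjusted p = 0.69), and its responses differed by -1.39 (adjusted p = 0.00215). WT mice had 2 of the 9 lower, Clec4g of the sinusoidal endothelium (-0.61, adjusted p = 0.00116) and Clec4f of Kupffer cells (-0.39, adjusted p = 0.0322, lost for 8 of 10 mice left out). Among 11 genes of TREM2 signaling and the TREM family, 2 rose in PXR-KO mice and 0 were called in WT mice by limma (1 lower at an unadjusted p under 0.05). Treml4 rose by 1.42 (adjusted p = 0.00533), and Tyrobp, the adaptor of Trem2, by 0.66 (adjusted p = 0.0366), a call that was lost for 9 of 10 mice left out (adjusted p up to 0.0985). Of 11 integrins and osteopontin receptors, Itgb2, the partner chain of Itgax, rose by 0.88 in PXR-KO mice (adjusted p = 0.0181), and the responses differed by -0.93 (adjusted p = 0.0166). The medians in PXR-KO mice were 0.04 for the lectins, 0.16 for TREM2 signaling and 0.17 for the integrins, and in WT mice -0.07, -0.07 and -0.04. Cd44, a receptor of hyaluronan and osteopontin, was the other of the 2 called there (0.75, adjusted p = 0.0495, lost for 9 of 10 mice left out).

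The enzymes and lysosomal genes near the members came next. Of 16 further V-ATPase subunits, 5 rose in WT mice and 0 were called in PXR-KO mice by limma, where 8 were higher at an unadjusted p under 0.05. The WT rises were Atp6v0a2 (0.65, adjusted p = 0.00099), Atp6v0e (0.59, adjusted p = 0.00114), Atp6v1a (0.53, adjusted p = 0.0014) and Atp6v0a1 (0.58, adjusted p = 0.00283) among them. The list's mean per mouse ran from 0.17 to 0.24 in treated WT and from 0.09 to 0.30 in treated PXR-KO mice. Of 17 lysosomal hydrolases and membrane proteins, 3 rose and 2 fell in WT mice, and 2 rose in PXR-KO mice. Gaa, the lysosomal glucosidase, rose by 1.17 in WT mice (adjusted p = 0.000445) and its responses differed by 1.27 (adjusted p = 0.000181), while Ctsz rose by 0.53 in PXR-KO mice (adjusted p = 0.0137). Of 15 matrix metalloproteinases and inhibitors other than Mmp12, 1 rose and 1 fell in WT mice, Mmp19 at 1.30 (adjusted p = 0.00202) and Mmp14 at -0.51 (adjusted p = 0.0182), and none was called in PXR-KO mice (3 higher and 1 lower at an unadjusted p under 0.05). Of 8 genes of the galectin list other than Lgals3, 2 were called higher in WT mice, Lgals1 at 0.85 (adjusted p = 0.0106) and the galectin-3 binding protein Lgals3bp at 0.79 (adjusted p = 0.000652), and the difference was called positive for 3 of 8. Medians in WT and PXR-KO mice were 0.09 and 0.21 for the V-ATPase subunits, 0.01 and -0.0016 for the lysosomal list, 0.17 and 0.11 for the metalloproteinases and 0.10 and -0.09 for the galectins. Osteoclast genes, the cell in which Atp6v0d2 is best known, had 2 of 9 higher and 1 lower in WT mice and 0 of 9 called in PXR-KO mice, none of them at an unadjusted p under 0.05. Scavenger receptors other than Marco had 5 of 12 lower in WT mice and 0 of 12 called in PXR-KO mice (3 higher and 3 lower at an unadjusted p under 0.05).

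Genes of lipid-associated macrophages, a state to which Gpnmb, Trem2, Spp1 and Cd68 also belong, were split. Of 21 measured, 3 rose and 3 fell in WT mice, and 1 rose and 1 fell in PXR-KO mice. Cstb (0.88, adjusted p = 7.27e-05) and Ctsd (0.76, adjusted p = 0.000192), a cathepsin inhibitor and a cathepsin, rose in WT mice and were at 0.30 and 0.23 in PXR-KO mice (adjusted p = 0.0962 and 0.142). Lpl, lipoprotein lipase, fell by 0.77 in WT mice (adjusted p = 0.00911). Fabp5, a fatty acid binding protein, fell by 2.89 in PXR-KO mice (adjusted p = 0.000522), with treated mice at -3.27 to -2.29. The median of the list was 0.22 in PXR-KO and -0.01 in WT mice, and its mean per mouse was -0.25 to 0.20 in treated PXR-KO and -0.10 to 0.06 in treated WT mice.

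Markers of cell types were counted beside the members, as the files give ratios and not levels. Of 13 resident Kupffer cell markers, 6 fell and 0 rose in WT mice by limma, Slc40a1 (ferroportin, -0.85, adjusted p = 0.000512), Csf1r (the CSF1 receptor, -0.58, adjusted p = 0.00723) and Cd163 (-0.59, adjusted p = 0.0103) among them. In PXR-KO mice 2 rose and 1 fell. Spic, a factor of iron-handling macrophages, rose by 1.88 (adjusted p = 0.00552) and Slc40a1 by 0.41 (adjusted p = 0.0476, lost for each of 10 mice left out), while Folr2 fell by 1.05 (adjusted p = 0.0442). Timd4, Adgre1, Clec4f, Vsig4, Csf1r and Cd163 were not called in PXR-KO mice (-0.28 to 0.23 on the log2 scale). The list's median was 0.08 in PXR-KO and -0.39 in WT mice. Its mean was -0.06 to 0.35 in treated PXR-KO mice, -0.36 to 0.34 in their vehicle mice and -0.55 to -0.21 in treated WT mice.

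**Figure D4:**
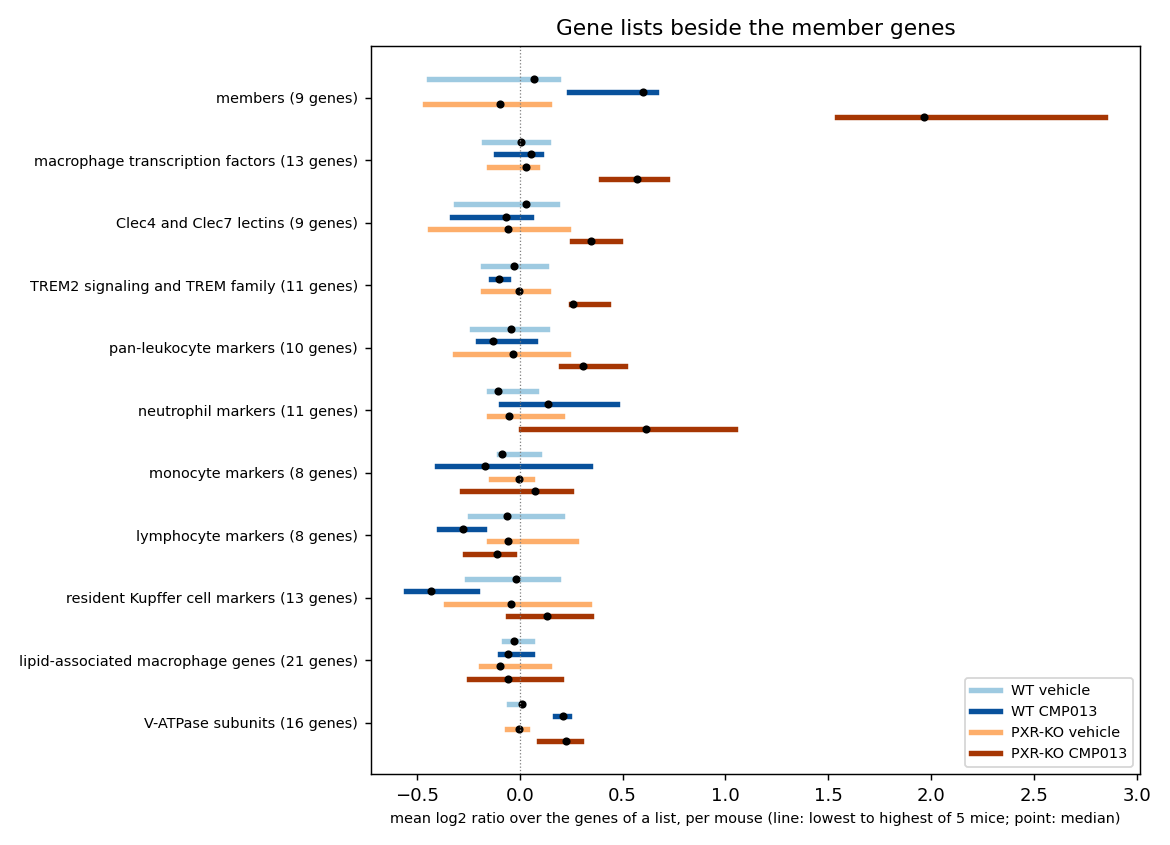
Mean log2 ratio over the measured genes of a list (horizontal axis) for the members and 10 other lists (vertical axis), where a line runs from the lowest to the highest of the 5 mice of a group and the point is the median mouse. Treated PXR-KO mice reach 1.54 to 2.85 for the members, 0.20 to 0.51 for the pan-leukocyte markers and -0.28 to 0.25 for the monocyte markers, and treated WT mice reach -0.55 to -0.21 for the Kupffer markers.

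Among the leukocyte lists, the pan-leukocyte markers had 1 of 10 called higher in PXR-KO mice (Cd48, 1.02, adjusted p = 0.0308, lost for 7 of 10 mice left out) and a negative difference for 4 of 10, Cd53 (-0.80, adjusted p = 0.0137) and Ptpn6 (-0.45, adjusted p = 0.0208) among them. Their mean was 0.20 to 0.51 in treated PXR-KO mice and -0.20 to 0.08 in treated WT mice. Ptprc (CD45) was at 0.35 in PXR-KO and -0.22 in WT mice (adjusted p = 0.252 and 0.367). Of 11 neutrophil markers, 2 rose in WT and 1 in PXR-KO mice. S100a8, an abundant protein of neutrophils and monocytes, rose by 1.12 in WT (adjusted p = 0.0108) and by 2.08 in PXR-KO mice (adjusted p = 0.0343, lost for 8 of 10 mice left out). The neutrophil list's mean was 0.01 to 1.05 in treated PXR-KO and -0.09 to 0.47 in treated WT mice. Of 8 monocyte markers none was called in either genotype by limma (1 higher in each at an unadjusted p under 0.05), and Itgam and Ccr2 were at 0.27 and -0.19 in PXR-KO mice (adjusted p = 0.494 and 0.629). Of 7 dendritic cell and 8 lymphocyte markers none was called in either genotype, and their means were -0.46 to -0.16 and -0.26 to -0.03 in treated PXR-KO mice. At an unadjusted p under 0.05, 0 dendritic and 3 lymphocyte markers passed for WT, against 1 and 3 for PXR-KO mice. Cholangiocyte markers had 1 of 7 higher in WT and 0 of 7 called in PXR-KO mice, and hepatocyte markers had 2 of 8 lower in WT and 0 of 8 called in PXR-KO mice (0 and 1 at an unadjusted p under 0.05). Stellate cell markers had 3 of 10 lower in WT and 1 of 10 lower in PXR-KO mice, and sinusoidal endothelial markers 5 of 7 lower in WT and 1 higher and 1 lower in PXR-KO mice. Medians in PXR-KO mice were 0.34 for the pan-leukocyte, 0.19 for the neutrophil, 0.01 for the monocyte, -0.18 for the dendritic and -0.10 for the lymphocyte markers. The part of these markers in the members' values was not tested.

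Of 16 factors that act on macrophages, the difference of the responses was called positive for 1, beside 5.47% of all probe sets, and negative for none. That count is near the share of the array. Csf1, the main growth factor of macrophages, rose by 1.02 in WT mice (adjusted p = 0.0019) and was at -0.14 in PXR-KO mice (adjusted p = 0.679), and the responses differed by 1.16 (adjusted p = 0.00247). Averaged over its probe sets that difference was -0.08, so it rests on the probe set read. The chemokine Ccl2 rose by 0.66 in WT mice (adjusted p = 0.027, lost for 6 of 10 mice left out), and Ccl3 by 0.755 in PXR-KO mice (adjusted p = 0.0434, lost for each of 10 mice left out). The medians of the 16 were 0.05 in PXR-KO and 0.19 in WT mice. Of 12 genes of classical and alternative activation, Il1rn, the interleukin-1 receptor antagonist, rose by 1.32 (adjusted p = 0.00841) and Chil3 by 1.78 (adjusted p = 0.0321, lost for 7 of 10 mice left out) in PXR-KO mice. Chil3 also rose by 0.81 in WT mice (adjusted p = 0.0163), where Mrc1, the mannose receptor, fell by 0.58 (adjusted p = 0.00103). Il1rn was at 0.78 in WT mice (adjusted p = 0.0724). The difference of the responses was called for 0 of these 12 genes. Without the 4 vehicle mice that stand apart, the counts higher in PXR-KO mice fell to 2 of 13 for the transcription factors, 1 of 9 for the lectins, 1 of 11 for TREM2 signaling and 1 of 13 for the Kupffer markers. They fell to 0 for the integrins, the activation genes, the lysosomal list, the pan-leukocyte and neutrophil markers, the lipid-associated genes and the factors that act on macrophages, and 4 of the 13 Kupffer markers stayed lower in WT mice.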

How the data were processed

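Liver RNA of 20 mice was hybridized to Affymetrix Mouse430_2 arrays, 1 per animal. The deposited values are log10 ratios, which the authors made in Rosetta Resolver 7.2 as an animal's intensity over the average of the 5 same-genotype vehicle animals. A ratio leaves out level and the difference between genotypes under vehicle. Signal intensities, detection calls and the p-values given with each ratio played no part here. Which probe sets were above background was not examined, and dim probe sets were kept. The number of mice limits the precision. The ratios were turned into log2 values and the authors' normalization was kept. Array medians lay between -0.03 and 0.01 (log2), no member value was at the limit of the scale (7 were in all), and the highest correlation between arrays was 0.593. SDs over probe sets were 0.334 to 0.395 in WT vehicle, 0.587 to 0.704 in WT CMP013, 0.340 to 0.463 in PXR-KO vehicle and 0.468 to 0.568 in PXR-KO CMP013 arrays.

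Vehicle and CMP013 mice were compared per genotype (10 arrays), and the 2 responses over all 20 arrays, with lmFit and eBayes of limma 3.58.1 (R 4.3.3, package data.table of version 1.17.8) over 45037 probe sets, with Benjamini-Hochberg adjustment and a threshold of 0.05. All adjusted p are from these fits. The methods were tested on simulated data. Tables and plots were made with Python 3.11.15, pandas 2.3.3, numpy 2.4.6 and matplotlib 3.10.9. A gene was represented by 1 probe set that names no other gene, one without the _s_ or _x_ mark first, then that with the smallest SD within the vehicle groups, and all probe sets of a member are also given. Named genes are the members, up to 4 genes per list, 12 defining markers and the 10 genes most like the members. Those of a list had its smallest adjusted p in any of the 3 comparisons, where under 0.05. Probe sets were named from the platform annotation, which can be old, and positions and promoters come from RefSeq (GRCm38.p6). The members and the 23 other lists were chosen with earlier results of these data known.

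Alternatives were arrays shifted to a common median, quantile normalization, array weights, a replicate block, trend and robust variances, all 4 groups in one fit, the mean over probe sets of a gene, leaving out each mouse, and leaving out 4 vehicle mice (WT 3 and 4, PXR-KO 2 and 4) that stood apart in an earlier analysis. Arithmetic means of the members' ratios were added after seeing the data.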

Additional observations from a re-analysis of the deposited data

Results flagged for a closer look

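Of 52 series of 5 values (13 member probe sets in 4 groups), 4 had 1 mouse far from its group mates by Dixon's ratio, where chance gives about 1 in 20. These were Marco 1449498_at in WT CMP013 mouse 4 (log2 ratio 0.96), Marco 1458297_s_at in PXR-KO vehicle mouse 5 (1.97), Trem2 1421226_at in WT CMP013 mouse 5 (0.71) and Trem2 1421792_s_at in WT CMP013 mouse 1 (-2.14).

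Among the named genes of the other lists and the defining markers, leaving out the genes picked for likeness to the members, 34 had responses that differed between genotypes (WT minus PXR-KO, log2, limma adjusted p under 0.05). The genes of the lists were named for a small adjusted p in any of the 3 comparisons, this one included. The count of 34 is thus partly fixed by that choice and nothing is read from it. Over the array the difference was called negative for 5.49% and positive for 5.47% of probe sets. The difference was negative for the following, whether by a rise in PXR-KO or by a fall in WT mice. Fos was at -2.80, Cxcr2 at -2.27, Spic at -2.23, Treml4 at -1.76, Itgb3 at -1.62, Clec4n at -1.55, Lpl at -1.41, Clec7a at -1.39 and Slc40a1 at -1.27. Coro1a was at -1.02, Cd48 at -1.0, Ctsa at -0.95, Itgb2 at -0.93, Mmp14 at -0.93, Irf8 at -0.81, Cd53 at -0.80, Cd44 at -0.80, Syk at -0.72, Tyrobp at -0.69 and Vsig4 at -0.69. Pik3r1 was at -0.59, Clec4g at -0.57, Ctsz at -0.46 and Ptpn6 at -0.45. It was positive for Fabp5 (2.30, where both responses were negative), Lgals1 (1.70), Gaa (1.27), Mmp19 (1.20), Csf1 (1.16), Lgals3bp (0.97), Atp6v0a2 (0.58), Cstb (0.58), Ctsd (0.53) and Lgals9 (0.33). With 1 of 20 mice left out in turn, the call was lost most often for Vsig4 (15 mice), Syk (14), Pik3r1 and Lgals9 (13 each) and Cxcr2 and Coro1a (12 each). It was lost for 9 mice for Cd44, 8 each for Cd48 and Clec4n, 7 for Itgb3 and 4 for Tyrobp.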

How the results depend on the processing

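The WT count of 2 called member genes became 1 with quantile normalization, with the replicate block and without the 4 vehicle mice, each time by the loss of Mmp12, and ran from 1 to 4 with 1 mouse left out. The member probe sets called in WT mice ran from 2 to 5. In PXR-KO mice 7 member genes (10 probe sets) were past the threshold, beside 2.12% of all probe sets called higher. The genes were chosen on that response, so these counts are a description and nothing is read from them. They became 3 (4) with the replicate block, 0 (0) with trend and robust variances and 4 (5) without the 4 vehicle mice. Gpnmb 1448303_at dropped out without PXR-KO vehicle mouse 1, 3 or 4 or PXR-KO CMP013 mouse 2. Of the 105 calls on named genes and, in WT mice, member probe sets in which each mouse was left out in turn, 75 stayed past the threshold each time. The replicate numbers did not pair the mice: deviations of same-numbered WT mice correlated at -0.242 to 0.065 and those of PXR-KO mice at -0.202 to 0.047.

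Some signs turned. Averaged over probe sets, Trem2 in PXR-KO mice was at 0.86, Mitf in WT mice at -0.11, Csf1 in PXR-KO mice at 0.67 and the difference for Csf1 at -0.078. Mitf in PXR-KO mice was at -0.021 with array weights and -0.11 without the 4 vehicle mice. With 1 mouse left out, Marco 1449498_at ran from -0.23 to 0.43 in WT mice, Trem2 1421226_at from -0.027 to 0.18 and Trem2 1421792_s_at from -0.46 to 0.44. So did Tyrobp (-0.093 to 0.057) and Itgam (-0.27 to 0.21) in WT mice, and Timd4 (-0.17 to 0.19), Adgre1 (-0.24 to 0.029) and Mitf (-0.035 to 0.090) in PXR-KO mice.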
